A study of Rattus norvegicus with 56 samples.

Results

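The coagulation and complement proteins made by hepatocytes were described in the livers of adult rat offspring as a set of 35 genes, chosen by symbol from the known components of these cascades. Of the 35 genes, 34 had a row in the count table of 17337 genes, and C5 had no row under that symbol. Of these 34 genes 32 passed the filter on low counts and were tested among 11047 genes. Kng1, which encodes high molecular weight kininogen, had 133 reads over all 56 libraries and none in 12 of them. Serpina10, which encodes the protein Z-dependent protease inhibitor, had 5 reads and none in 51 libraries. Both were left untested, and no direction is given for them. A row named Kng1l1, a symbol that RefSeq lists as a synonym of Kng1, held no read, and which locus the Kng1 row counts was not settled here. Mbl2 passed the filter with 559 reads, 2 to 35 in each library, so its values are the least precise. F7 had at least 183 reads in every library, and each of the other 30 tested genes had more than F7 in its lowest library.

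The liver makes most of the clotting factors and complement proteins of plasma. In coagulation, tissue factor with factor VII or contact activation through factor XII starts a chain of proteases that ends with thrombin and fibrin, and antithrombin and the protein C system restrain it. In complement, the classical and lectin pathways start with C1r and C1s or with the mannose-binding lectins and their proteases, the convertases cut C3 and C5, and C6 to C9 assemble the membrane attack complex. Hepatocytes release these proteins into blood, and several of them are acute phase proteins in other settings.

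The libraries came from Sprague-Dawley offspring killed on day 180, at ZT4 or ZT16, that is 4 or 16 h after lights on in a cycle with 12 h of light. In the control group, CON, dams and offspring ate regular chow. For HFhf, a high fat and high fructose diet, dams went onto a Western diet on gestation day 11 with 25% fructose in their drinking water, and the design text says this diet was given throughout. Dams of both growth-restricted (IUGR) groups were held to 50% of calories from gestation day 10 until birth and then moved to chow (IUGR-RC) or to HFhf (IUGR-HFhf). These arms are called diets below, although CON and IUGR-RC both had chow and differed in the calories of the dams. Each was sampled in males and females at both times, which gives 16 groups of 3 or 4 libraries. They hold 12 CON, 14 HFhf, 15 IUGR-HFhf and 15 IUGR-RC libraries. The labels name neither litters nor pairs, so p-values measure only the spread between these samples.

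Depth ran from 5549530 to 19065339 counted reads per library, with a median of 9172034. The median was 13374810 in IUGR-RC, 8540690 in CON, 8462528 in HFhf and 7785156 in IUGR-HFhf. Albumin was at 93792 CPM or more in every library, CPM being a gene's reads relative to the TMM-scaled library size, and 13 hepatocyte secreted proteins outside the list summed to 195295 to 496338 CPM. The 34 members took 2.81% to 4.99% of the reads of a library, C3 alone 0.902% to 2.22%. Of 5 libraries in doubt, 3 held skeletal muscle transcripts: the female ZT4 IUGR-RC replicate 2 (Acta1 at 1310.4 CPM), the male ZT16 HFhf replicate 3 (125 CPM) and the female ZT4 IUGR-HFhf replicate 2 (20.3 CPM), against at most 2.73 CPM in the 51 libraries not in doubt. The last of these and replicate 3 of the same group also held exocrine pancreas transcripts, with Prss1 at 40.4 and 229 CPM against at most 0.940 CPM in those 51. The female ZT4 IUGR-RC replicate 3 was doubted because earlier results on these data placed it apart from its group in genes that differ between the times. IUGR-RC libraries carry sample numbers in series of their own, M for males and F for females. Growth restriction with chow and whatever else differed for those series therefore cannot be told apart. In bulk tissue, fewer cells of a type and less RNA per cell cannot be told apart either.

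HFhf changed a small number of members, and their directions were mixed within the same protein complex. C8g, the gamma chain of the eighth complement component, rose, and C8b, its beta chain, fell. F11, the protease that activates factor IX, fell, and F12, the contact factor upstream of it, rose. The call of F12 was kept under 20 of the 34 alternative fits given below. Averaged over both sexes and both times, 4 members were higher, where 4.31% of all genes tested were, and 2 were lower, where 3.63% were (edgeR quasi-likelihood test with Benjamini-Hochberg adjustment). The median log2 fold change was -0.00273 over the members and 0.00591 over all genes tested. Throughout, changes are fitted log2 differences between group means with their standard errors (SE), and a value written alone after a gene is such a difference.

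In the terminal complement genes, C8g had a lowest, median and highest level of 198, 246 and 302 CPM in the 12 CON libraries and 252, 356 and 457 CPM in the 14 HFhf libraries. Over all strata the ranges overlapped, but within each of the 4 strata every HFhf library lay above every CON library. Males at ZT16 had 199, 233 and 271 CPM in CON and 282, 373, 355 and 357 CPM in HFhf, and females at ZT16 had 250.4, 245 and 247 CPM in CON and 374, 332, 351 and 384 CPM in HFhf. The mean difference was 0.48 (SE 0.0726, adjusted p = 8.36e-06). C8b had 448, 523 and 650.1 CPM in CON and 403, 461 and 566 CPM in HFhf, a smaller and overlapping shift of -0.18 (SE 0.0487, adjusted p = 0.0159). C8a, the alpha chain, had -0.05 (adjusted p = 0.74).

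Among the contact and intrinsic factors, F11 ran at 79.3, 119 and 162 CPM in CON and 68.8, 91.4 and 144 CPM in HFhf, a log2 change of -0.27 (SE 0.0745, adjusted p = 0.0154). F12 went the other way, from 518, 701 and 887 CPM to 669, 792 and 1119.6 CPM, a log2 change of 0.22 (SE 0.0676, adjusted p = 0.03). F9, the enzyme missing in haemophilia B, had -0.21 (adjusted p = 0.234). Masp2, the lectin pathway protease that cuts C4 and C2, rose from 172, 209 and 246 CPM to 188, 231 and 274 CPM, by 0.19 (SE 0.0538, adjusted p = 0.0211). Cfb, the catalytic part of the alternative pathway convertase, rose from 1403, 1699 and 1948 CPM to 1574, 1808 and 2612 CPM, by 0.18 (SE 0.0608, adjusted p = 0.0492). In every one of these genes the CON and HFhf ranges overlapped.

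Within single strata HFhf moved only C8g among the members. Its log2 fold change was 0.54 (SE 0.141, adjusted p = 0.0468) in males at ZT16, where 0.932% of all genes were called in either direction, and 0.54 (SE 0.141, adjusted p = 0.036) in females at ZT16, where 1.26% were. At ZT4 no member passed, with 0.688% of genes called in males and 1.16% in females, while 5 and 8 members had an unadjusted p under 0.05 in the same edgeR fit. C8g had 0.36 (adjusted p = 0.321) in males and 0.47 (adjusted p = 0.119) in females at ZT4.

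The calls of C8g, C8b and F11 were kept under all 34 alternatives tried, and those of Masp2, F12 and Cfb under 26, 20 and 10. Libraries named as left out, here and below, were left out 1 at a time. The count of 4 higher members was 2 without male ZT4 CON replicate 3, male ZT16 CON replicate 2 and female ZT4 CON replicate 1 and 1 without male ZT4 HFhf replicate 2, male ZT16 CON replicate 1, male ZT16 HFhf replicate 4, female ZT4 CON replicate 2, female ZT4 HFhf replicate 3, female ZT16 CON replicates 1 and 3 and female ZT16 HFhf replicate 4. Each of the last 8 libraries took the call of Masp2 (adjusted p from 0.0521 to 0.0794) and of F12, and F12 also lost its call without male ZT4 CON replicates 2 and 3, male ZT16 CON replicate 2, female ZT4 CON replicate 1 and female ZT16 CON replicate 2 (adjusted p from 0.051 to 0.105 over its 13 libraries). Cfb, at the threshold, lost its call without 21 of the 26 CON and HFhf libraries, the exceptions being male ZT16 HFhf replicates 1 and 3, female ZT4 HFhf replicate 2 and female ZT16 HFhf replicates 1 and 3 (adjusted p from 0.0521 to 0.174). The count of 2 lower members was 4 without male ZT4 HFhf replicate 2, female ZT4 CON replicate 3, female ZT4 HFhf replicate 1 and female ZT16 CON replicate 3.

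Of the markers of other liver cells, 1 of 13 macrophage genes was called in HFhf, Marco at -3.03, and the summed list was 580.4 to 875 CPM in CON and 422 to 790.1 CPM in HFhf. Of the cholangiocyte genes 0 were higher and 1 lower of 5, Epcam at -0.71, and of the adipocyte genes 1 were higher and 0 lower of 6, with a summed list of 59.3 to 88.5 CPM in CON and 69.4 to 108 CPM in HFhf. The part of these cells in the results was not tested.

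Of the coagulation genes outside the list, 2 were higher and 0 lower of 27 tested. Vkorc1, the vitamin K epoxide reductase whose product is needed to carboxylate factors II, VII, IX and X and proteins C and S, had 0.39 (SE 0.0960, adjusted p = 0.0059), and Anxa2, a cell surface plasminogen receptor, had 0.41 (adjusted p = 0.0133). Of 27 other complement genes tested none was called by edgeR, with 1 at an unadjusted p under 0.05. The vitamin K-dependent members themselves, F2, F7, F9, F10, Proc and Pros1, had log2 fold changes of 0.17, 0.12, -0.21, 0.21, 0.06 and -0.12, and none of them was called.

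IUGR-HFhf changed more members, mostly downward. The initiating proteases C1r, C1s and Masp1, the central component C3, the alpha chain of C4b-binding protein and the clotting factors F9 and F11 were lower than in CON. C8g, F12, F10 and Masp2 were higher. The mean levels of C3, C1r and C1s lay nearer to CON at ZT4 than at ZT16, as given below. Averaged over the 4 strata, 4 members were higher, where 5.80% of all genes were, and 9 were lower, where 4.68% were. The median log2 fold change was -0.108 over the members and 0.00455 over all genes tested. This comparison shares its CON libraries with the one for HFhf, so the values of both are given side by side and their likeness is not taken as a result.

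**Figure D1:**
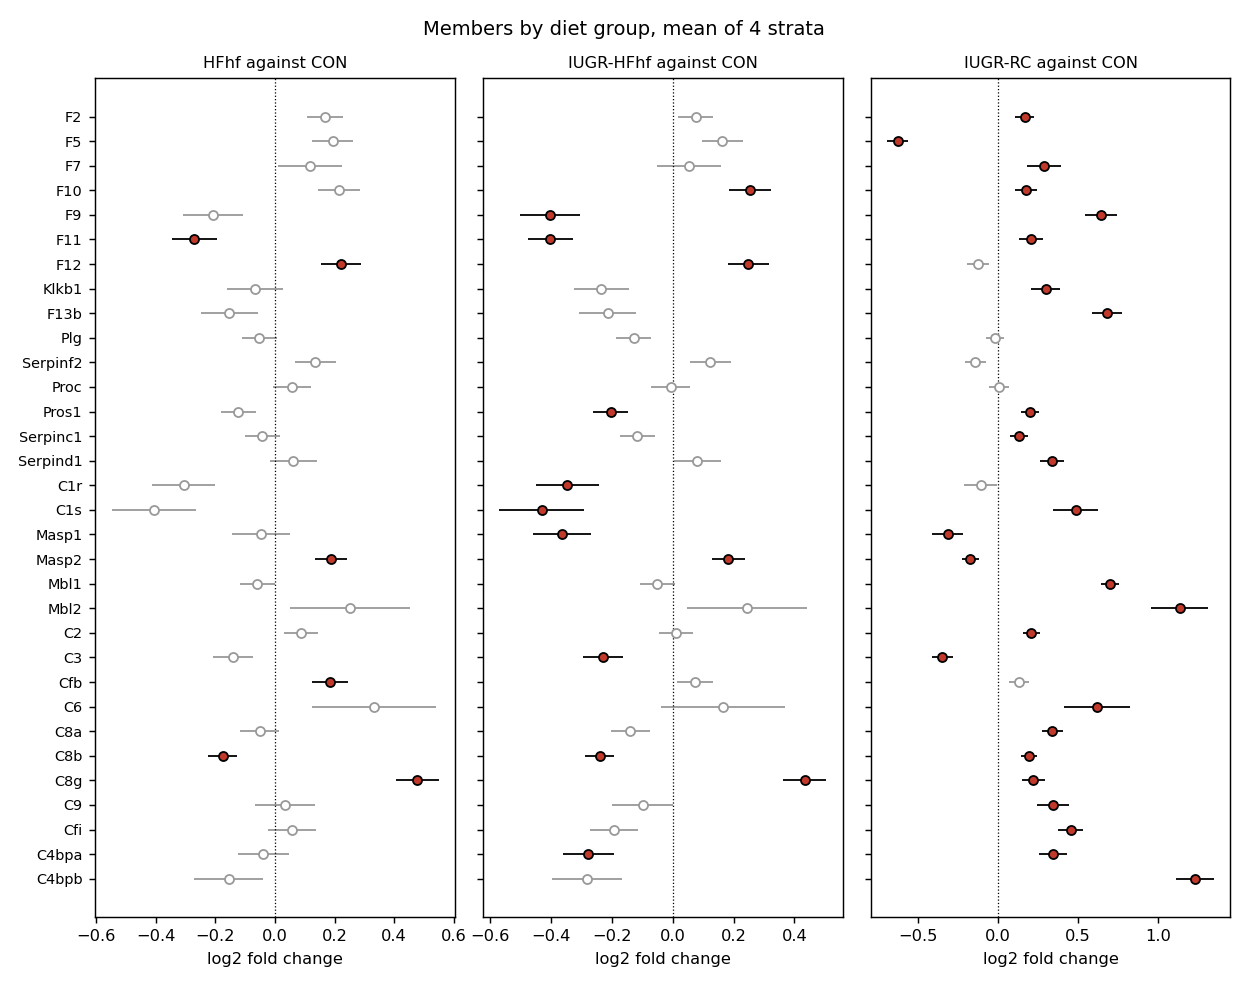
Log2 fold change (x axis) of the 32 tested members (rows, ordered by role) in HFhf, IUGR-HFhf and IUGR-RC against CON, each as the mean of 4 strata. Points are fitted differences, bars 1 standard error, and filled points passed an adjusted p of 0.05: 6 members in HFhf, 13 in IUGR-HFhf and 26 in IUGR-RC. The x axes differ between panels, and C8g lies farthest to the right in the first and second panels.

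F10, which forms prothrombinase with factor V, ran at 351, 472 and 617 CPM in CON and 430.2, 544 and 814 CPM in the 15 IUGR-HFhf libraries, a log2 change of 0.25 (SE 0.0699, adjusted p = 0.0121) against 0.21 (adjusted p = 0.0501) in HFhf. F11 was at 65.2, 83.6 and 134 CPM, lower than CON with a log2 change of -0.40 (SE 0.0732, adjusted p = 0.000124). F9 ran at 758, 922 and 1142 CPM in CON and 506, 745 and 911 CPM in IUGR-HFhf, a log2 change of -0.40 (SE 0.0991, adjusted p = 0.00459). F12 was at 643, 833 and 1007 CPM, higher with a log2 change of 0.25 (SE 0.0665, adjusted p = 0.00977). Thus F12 was higher and F11 and F9, which act after it in the contact route, were lower in the same libraries, with overlapping ranges in each case. Pros1, which encodes protein S, the cofactor of activated protein C, had -0.20 (SE 0.0568, adjusted p = 0.0128), and the antithrombin gene Serpinc1 -0.12 (adjusted p = 0.209).

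Among the genes that start complement, Masp1 ran at 162, 263 and 380.3 CPM in CON and 125, 193 and 293 CPM in IUGR-HFhf, a log2 change of -0.36 (SE 0.0961, adjusted p = 0.00891). Masp2 moved oppositely, to 207, 226 and 275 CPM, by 0.18 (SE 0.0529, adjusted p = 0.0173). C1r and C1s, the paired proteases of C1 and direct neighbours on chromosome 4 in RefSeq GRCr8, had -0.35 (SE 0.104, adjusted p = 0.0219) and -0.43 (SE 0.140, adjusted p = 0.0369). The lowest, median and highest C1r levels were 490.0, 849 and 1153 CPM in CON and 234, 579 and 1274 CPM in IUGR-HFhf, so the IUGR-HFhf libraries spread beyond CON on both sides. C3 ran at 15249.6, 16700.0 and 19104 CPM in CON and 10097, 13478 and 20926 CPM in IUGR-HFhf, with -0.23 (SE 0.0658, adjusted p = 0.0169). Mean C3 was 17071 CPM in IUGR-HFhf and 17647 CPM in CON at ZT4, and 12061 and 16167.5 CPM at ZT16. IUGR-HFhf males at ZT4 had the highest C3 mean of all groups, 18929 CPM. In the same order, mean C1r was 839 and 922 CPM at ZT4 and 482 and 738 CPM at ZT16, and mean C1s 462 and 517 CPM and 258 and 427 CPM. The edgeR test of this time difference called none of them.

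In the terminal complex, C8g was at 251, 331 and 478 CPM, higher with a log2 change of 0.43 (SE 0.0714, adjusted p = 2.73e-05), and C8b at 376, 451 and 519.7 CPM, lower with a log2 change of -0.24 (SE 0.0478, adjusted p = 0.000437). C8a, the neighbour of C8b in the genome, had -0.14 (adjusted p = 0.17), and C6 and C9, other parts of the pore, 0.16 (adjusted p = 0.699) and -0.10 (adjusted p = 0.606). Of the regulators, C4bpa, the chain that binds C4b, had -0.28 (SE 0.0846, adjusted p = 0.0244), C4bpb, the chain that binds protein S, -0.28 (adjusted p = 0.109) and Cfi, the protease that inactivates C3b and C4b, -0.19 (adjusted p = 0.113). As in HFhf, the gamma and beta chains of C8 went in opposite directions, and every IUGR-HFhf library lay above every CON library for C8g within each stratum.

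**Figure D2:**
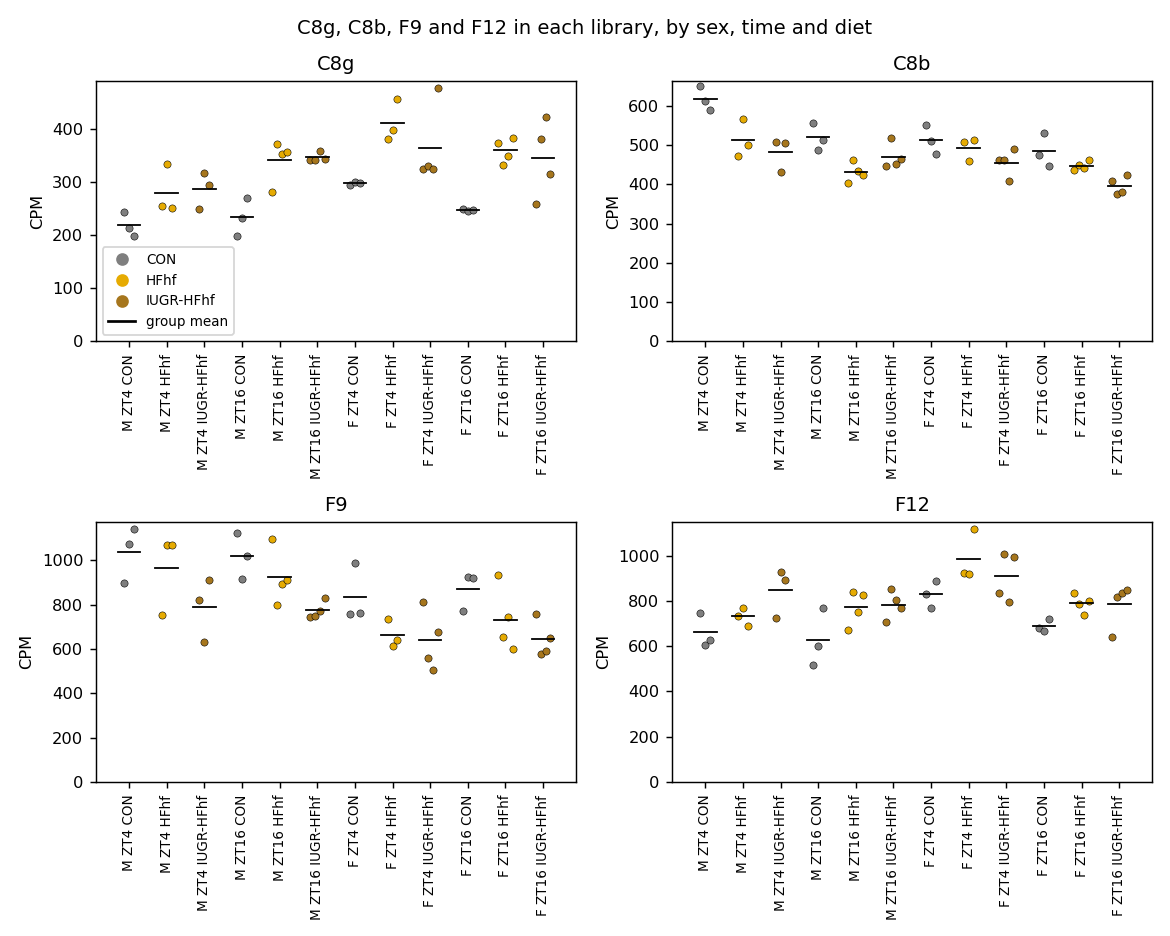
Level in CPM (y axis, from 0) of C8g, C8b, F9 and F12 in each CON, HFhf and IUGR-HFhf library, by sex (M, F) and time (x axis). Points are libraries and lines group means; in C8g the HFhf and IUGR-HFhf points lie above the CON points of their own stratum.

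Single strata gave few calls for IUGR-HFhf. In males at ZT16, where 3.31% of all genes were called, C8g was higher with a log2 change of 0.57 (SE 0.141, adjusted p = 0.0151) and F11, C1r and C1s were lower. C1r had 929, 741 and 949.9 CPM in CON and 518, 564, 469 and 579 CPM in IUGR-HFhf, a log2 change of -0.71 (SE 0.203, adjusted p = 0.0363). C1s had 508, 353 and 502 CPM in CON and 210.5, 261, 210.1 and 253 CPM in IUGR-HFhf, a log2 change of -0.96 (SE 0.274, adjusted p = 0.0374). Neither gene's groups overlapped. F11 had 119.7, 132 and 126 CPM in CON and 83.6, 92.7, 84.3 and 89.6 CPM in IUGR-HFhf, -0.53 (SE 0.144, adjusted p = 0.029). In females at ZT16, with 2.22% of genes called, C3 was the one member that passed, at 17033, 17448 and 15992 CPM in CON and 12179.8, 11097, 12119 and 13588 CPM in IUGR-HFhf, -0.46 (SE 0.129, adjusted p = 0.0422). At ZT4 no member passed in males, with 0.462% of genes called, or in females, with 0.679%, though 8 and 4 members had an unadjusted edgeR p under 0.05.

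Without the 5 libraries in doubt IUGR-HFhf had 4 members higher and 8 lower. Leaving out any single library left 4 higher and 6 to 10 lower, so no single library moved either count by more than 1.5 times. Outside the list, Vkorc1 had 0.48 (SE 0.0947, adjusted p = 0.000358), the only one of 27 other coagulation genes called. Of 27 other complement genes, Cr2, the complement receptor of B cells, was higher with 1.14 (adjusted p = 0.0383), and clusterin (Clu), which binds the terminal complex, and the ficolin Fcna were lower with -0.29 (adjusted p = 0.0225) and -0.40 (adjusted p = 0.0315). Marco, the only macrophage marker of 13 called, had -3.10, and the summed macrophage list was 401 to 870.2 CPM against 580.4 to 875 CPM in CON. Of the adipocyte genes 3 were higher and 0 lower of 6, and their sum was 75 to 109 CPM against 59.3 to 88.5 CPM, while 0 higher and 1 lower of 5 cholangiocyte genes were called, Epcam at -0.46. The part of those cells was not tested.

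Set directly against HFhf, IUGR-HFhf moved no member past the threshold. Of all genes 0.0543% were called. In this edgeR fit 4 members had an unadjusted p under 0.05, the smallest adjusted p was 0.246, and DESeq2 and limma-voom also called 0 members. The members' log2 fold changes ran from -0.318 to 0.0393 with a median of -0.0747, against 0.000530 over all genes, and 28 of 32 were below 0. The genes that were called only in IUGR-HFhf are therefore not shown to differ from HFhf: Masp1 had -0.32 (adjusted p = 0.246), F9 -0.20 (adjusted p = 0.64), C3 -0.09 (adjusted p = 0.825), C1r -0.04 (adjusted p = 0.982) and C4bpa -0.24 (adjusted p = 0.375).

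Whether a diet effect differed between the sexes or the times was tested as an interaction, and no member was called in any of the 4 tests. The sex difference of the HFhf effect, with 0.0724% of genes called, had 5 members under an unadjusted edgeR p of 0.05 and a smallest adjusted p of 0.319. The time difference of the HFhf effect, with 0.670% called, had 1 such member and a smallest adjusted p of 0.403. The sex difference of the IUGR-HFhf effect, with 0.281% called, had 0 and 0.901, and its time difference, with 0.643% called, had 3 and 0.153. Calls in 1 stratum and not in another, such as C8g at ZT16, are therefore not shown to differ between strata.

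Sex gave the largest difference of any member outside IUGR-RC, in F7. Factor VII, which starts coagulation with tissue factor, was lower in males, and so was F10, its substrate and direct neighbour on chromosome 16 in RefSeq GRCr8. F11 and Pros1 were higher in males. These 4 genes, 2 in each direction, were called with the same sign in all 4 diets. So were genes outside the list, such as Alb and Itih4 (lower in males) and Ttr and Hpx (higher). The share of all genes called so was not taken. The stretches before the starts of F7, F10, F11 and Pros1 are shown so that the genes with opposite sex differences can be compared. They are the 250 bases before each gene's start, 5′ to 3′ along the gene, from RefSeq GRCr8. Capitals mark matches to the motifs searched on either strand, which were CAAAGTC (HNF4), AGGTCA (a nuclear receptor hexamer), GTTAAT (HNF1), TTGCNNAA (C/EBP) and TTCNNNGAA (STAT). The hexamer was added to the search after sequences had been read.
F7, chr16:83202739-83202988, minus strand: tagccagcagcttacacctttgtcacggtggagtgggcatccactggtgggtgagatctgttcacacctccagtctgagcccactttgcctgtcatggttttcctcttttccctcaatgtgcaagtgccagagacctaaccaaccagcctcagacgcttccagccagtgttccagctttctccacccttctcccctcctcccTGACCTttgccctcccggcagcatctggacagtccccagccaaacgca
F10, chr16:83190281-83190530, minus strand: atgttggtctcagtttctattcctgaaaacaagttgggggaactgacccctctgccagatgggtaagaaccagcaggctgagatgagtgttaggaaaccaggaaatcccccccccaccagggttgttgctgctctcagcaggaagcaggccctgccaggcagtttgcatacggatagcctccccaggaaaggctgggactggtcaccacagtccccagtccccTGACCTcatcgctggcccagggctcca
F11, chr16:53720252-53720501, plus strand: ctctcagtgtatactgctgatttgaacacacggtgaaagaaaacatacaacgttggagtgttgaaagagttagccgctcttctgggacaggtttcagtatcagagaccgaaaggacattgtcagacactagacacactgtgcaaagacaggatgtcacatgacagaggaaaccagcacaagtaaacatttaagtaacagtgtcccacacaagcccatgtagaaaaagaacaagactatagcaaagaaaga
Pros1, chr11:13677049-13677298, plus strand: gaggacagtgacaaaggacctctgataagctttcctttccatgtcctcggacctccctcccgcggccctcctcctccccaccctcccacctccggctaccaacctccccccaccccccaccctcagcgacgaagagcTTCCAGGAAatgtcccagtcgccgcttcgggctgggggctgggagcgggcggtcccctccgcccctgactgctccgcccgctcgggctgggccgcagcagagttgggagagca
F7 and F10 each held 1 match to the nuclear receptor hexamer on the other strand, 42 and 21 bases before the start. Pros1 held 1 match to the STAT motif, 104 bases before the start, and F11 held none of the motifs. No match overlapped another. The hexamer was in 14.1% of 33469 promoters of the same length and in 12 of the 27 members with a sequence in the table. The STAT motif was in 7.67% and 4, the C/EBP motif in 9.22% and 10, the HNF1 motif in 6.45% and 8 and the HNF4 motif in 3.95% and 1. The members were counted with 1 promoter per symbol, while the 33469 were not reduced by symbol or to genes of the liver. The 2 sets are therefore unlike, and their shares were not compared by a test. The matches are of letters in a short window and say nothing of binding.

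F7 separated the sexes completely. Its lowest, median and highest levels over all diets were 26.5, 34.6 and 51.1 CPM in 28 male libraries and 53.6, 106 and 198 CPM in 28 female libraries, so the highest male library lay below the lowest female one. CON males had 26.6, 45.7 and 34.7 CPM at ZT4 and 38.1, 39.6 and 39.3 CPM at ZT16, and CON females 53.6, 77.0 and 95.9 and 65.0, 105 and 119 CPM. The male groups stayed within a narrow band in every diet, and the female groups were both higher and more spread. The difference of males from females was -1.19 (SE 0.157, adjusted p = 8.72e-08) in CON, -1.86 (SE 0.150, adjusted p = 7.58e-14) in HFhf, -1.31 (SE 0.144, adjusted p = 1.22e-09) in IUGR-HFhf and -1.77 (SE 0.141, adjusted p = 3.18e-14) in IUGR-RC.

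F10 had 351, 410.1 and 482 CPM in CON males and 462, 533 and 617 CPM in CON females, and 353, 437 and 518 against 507, 687 and 775 CPM in HFhf. Its differences were -0.36 (SE 0.104, adjusted p = 0.00952), -0.62 (SE 0.0971, adjusted p = 2.41e-06), -0.41 (SE 0.0937, adjusted p = 0.00113) and -0.43 (SE 0.0930, adjusted p = 0.000326) in CON, HFhf, IUGR-HFhf and IUGR-RC. The sexes overlapped in every diet except IUGR-HFhf, where males had 430.2 to 527 CPM and females 544 to 814 CPM. F2 (prothrombin) and F5, the cofactor of factor X, had the same sign in all 4 diets: F2 was lower in males in HFhf (-0.36) and IUGR-RC (-0.25) and F5 in HFhf (-0.29). All 4 genes of the extrinsic and common route were called lower in HFhf males, where 10.2% of all genes were. In CON, IUGR-HFhf and IUGR-RC 2, 2 and 3 of them were, beside 8.36%, 7.30% and 15.5% of all genes.

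F11 went the other way, with 119.7, 129 and 162 CPM in CON males and 79.3, 97.1 and 117 CPM in CON females, which did not overlap. Its differences were 0.50 (SE 0.109, adjusted p = 0.000558), 0.58 (SE 0.103, adjusted p = 1.95e-05), 0.40 (SE 0.0984, adjusted p = 0.00261) and 0.32 (SE 0.0981, adjusted p = 0.0106) in the same order of diets. F9 was higher in males in HFhf (0.44, adjusted p = 0.018) and IUGR-RC (0.58, adjusted p = 0.000735), and had 0.27 (adjusted p = 0.252) in CON and 0.28 (adjusted p = 0.156) in IUGR-HFhf. F9 in HFhf lost its call without male ZT4 HFhf replicates 2 and 3 and female ZT4 HFhf replicate 2 (adjusted p from 0.0535 to 0.0562). F12 was lower in males in IUGR-RC, with -0.38 (adjusted p = 0.000738). Klkb1, the prekallikrein gene and direct neighbour of F11, was called in no diet, with 0.07, -0.25, -0.13 and 0.06.

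**Figure D3:**
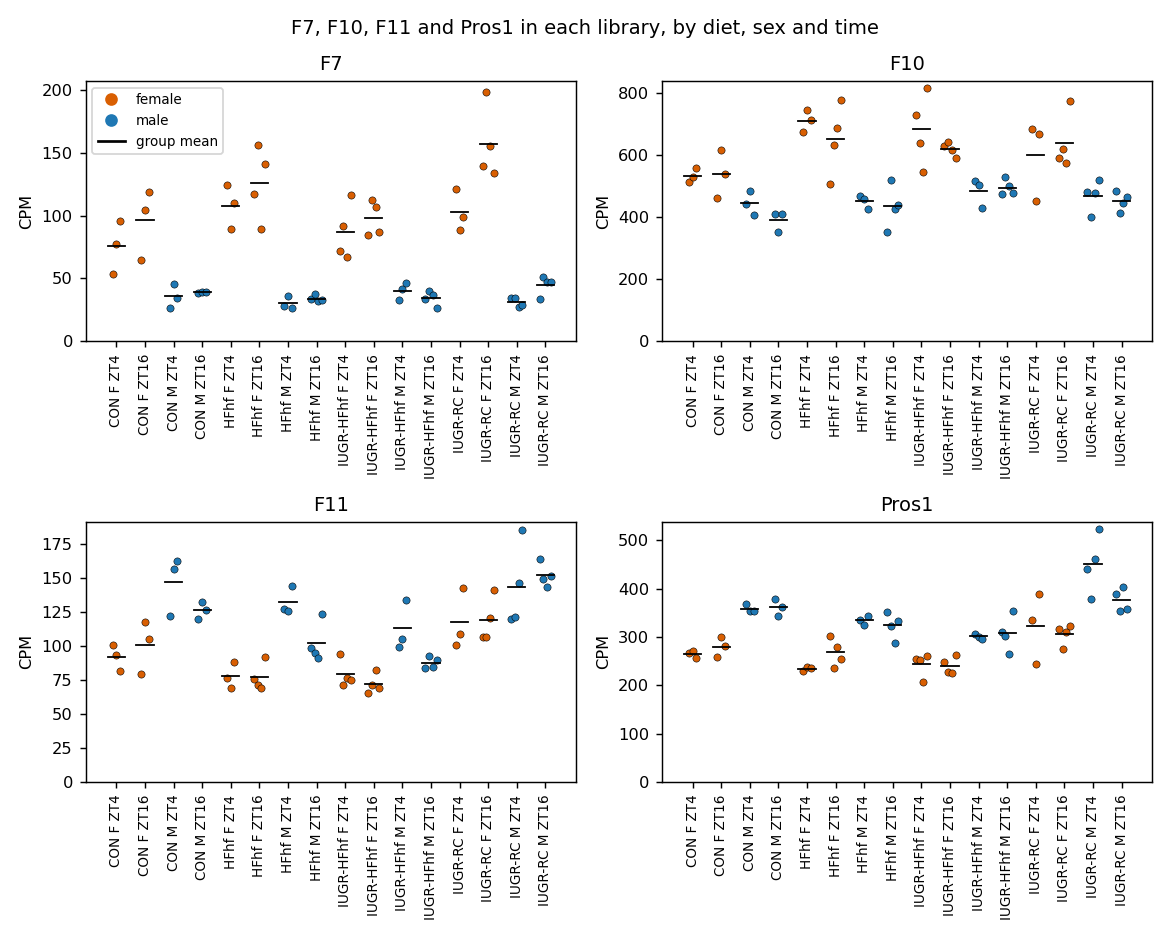
Level in CPM (y axis, from 0) of F7, F10, F11 and Pros1 in each of the 56 libraries, by diet, sex (F, M) and time (x axis). Points are libraries and lines group means; every male F7 point lies at or under 51.1 CPM and every female point at or above 53.6 CPM, while F11 and Pros1 are higher in males.

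The anticoagulants divided by sex. Pros1 had 343, 358 and 379 CPM in CON males and 257, 269 and 299 CPM in CON females, with no overlap, and differences of 0.40 (SE 0.0846, adjusted p = 0.000346), 0.39 (SE 0.0793, adjusted p = 0.000178), 0.33 (SE 0.0761, adjusted p = 0.00124) and 0.39 (SE 0.0765, adjusted p = 7.61e-05). Proc, the protein C zymogen, was higher in males in CON (0.31, adjusted p = 0.0169) and IUGR-HFhf (0.31, adjusted p = 0.00593). The thrombin inhibitors were lower: Serpind1, heparin cofactor II, had 625, 719 and 778 CPM in CON males against 789, 952 and 1133 CPM in CON females. It was called lower in CON (-0.42, adjusted p = 0.00773), HFhf (-0.51, adjusted p = 0.000308) and IUGR-RC (-0.34, adjusted p = 0.00857), with -0.28 (adjusted p = 0.0653) in IUGR-HFhf. Serpinc1 was lower in males in HFhf (-0.33, adjusted p = 0.00224) and IUGR-RC (-0.30, adjusted p = 0.00253). In fibrinolysis, Plg and Serpinf2, which encode plasminogen and the inhibitor of plasmin, were higher in males in IUGR-HFhf, with 0.29 (adjusted p = 0.0051) and 0.29 (adjusted p = 0.0176).

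In complement, most called members were higher in males in CON, IUGR-HFhf and IUGR-RC. In HFhf no complement member was called higher in males, and C8g and C8a were lower. C1r was higher in CON (0.56, adjusted p = 0.0082) and IUGR-HFhf (0.44, adjusted p = 0.0232), Masp1 in IUGR-HFhf (0.49, adjusted p = 0.00522), C2 in CON (0.27, adjusted p = 0.0205) and its neighbour Cfb in IUGR-RC (0.24, adjusted p = 0.0188). C9, the pore-forming component, had 1311, 1599 and 1982 CPM in CON males and 978, 1053 and 1359 CPM in CON females (0.52, adjusted p = 0.00964), and 1639, 2387 and 3032 against 701, 1214 and 1663 CPM in IUGR-RC (0.96, adjusted p = 1.69e-07). C4bpa was higher in CON (0.50, adjusted p = 0.00308) and IUGR-RC (0.63, adjusted p = 2.28e-05), where C4bpb (0.54, adjusted p = 0.00632), Cfi (0.36, adjusted p = 0.00856) and C8b (0.26, adjusted p = 0.00171) were too. The other chains of C8 were lower in males: C8g in HFhf (-0.32, adjusted p = 0.0161) and IUGR-RC (-0.40, adjusted p = 0.00105) and C8a in HFhf (-0.38, adjusted p = 0.00122).

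**Figure D4:**
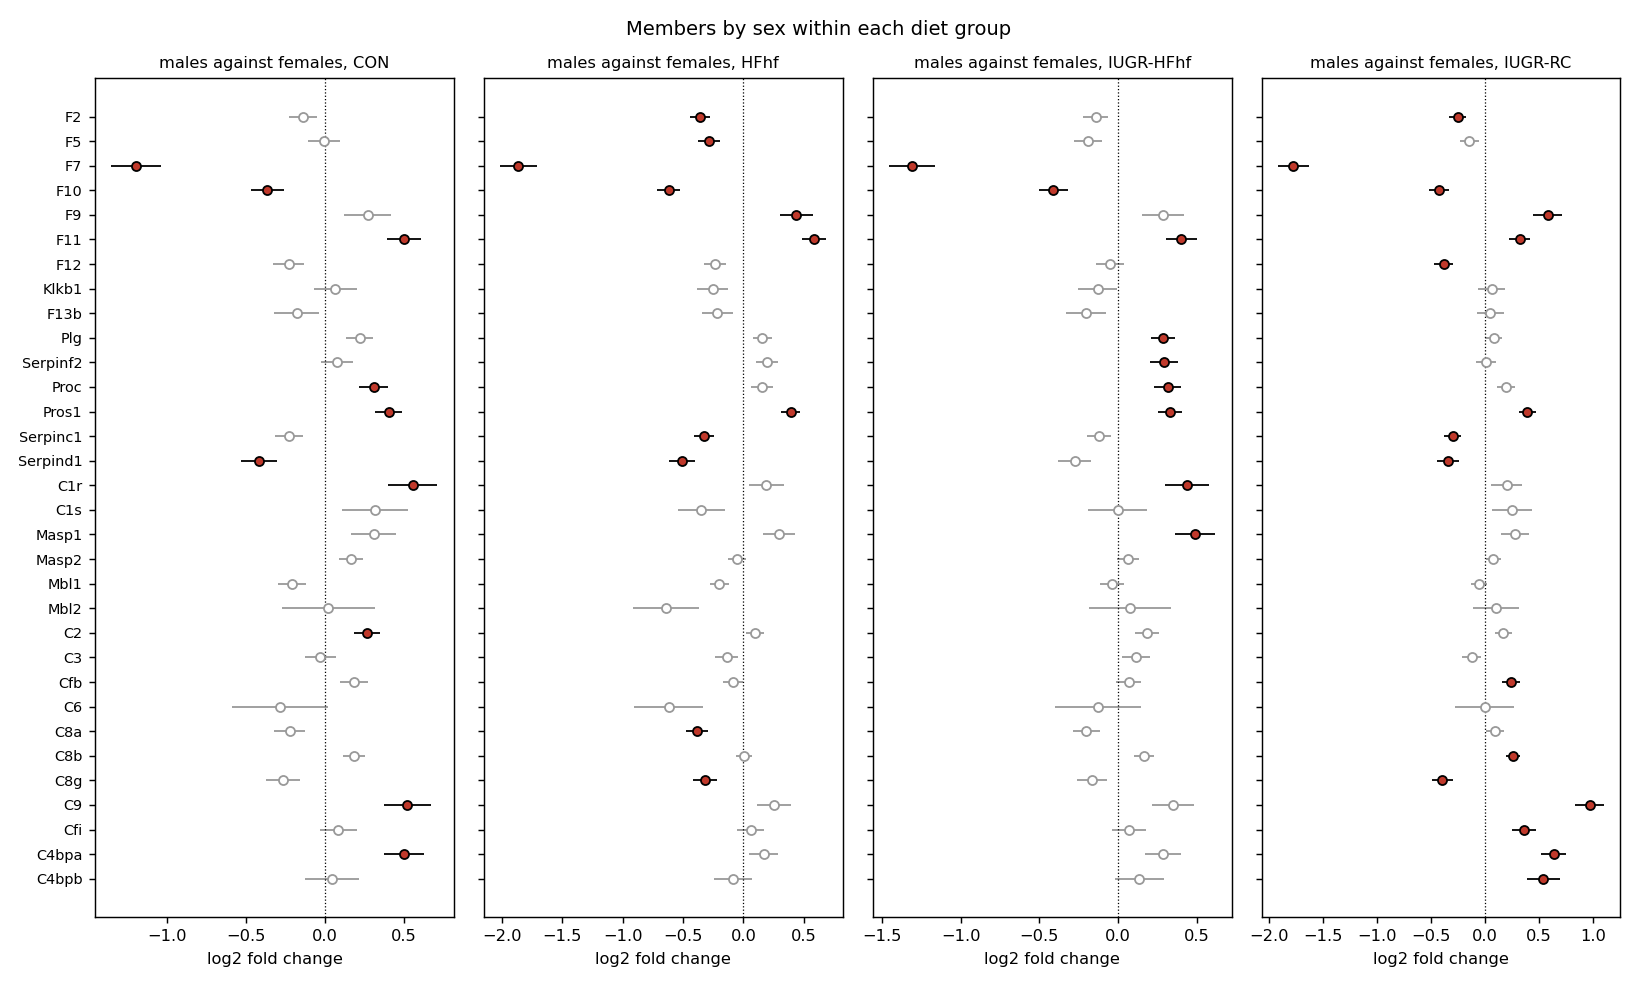
Log2 fold change of males against females (x axis) for the 32 tested members (rows, ordered by role) in each diet. Points are fitted differences, bars 1 standard error and filled points passed an adjusted p of 0.05: 10 members in CON, 11 in HFhf, 9 in IUGR-HFhf and 16 in IUGR-RC. The x axes differ between panels, and F7 lies farthest to the left in all 4.

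In counts, 7 members were higher and 3 lower in CON males, where 7.85% and 8.36% of all genes were. In HFhf 3 were higher and 8 lower, beside 10.0% and 10.2% of all genes. In IUGR-HFhf 7 were higher and 2 lower, beside 7.84% and 7.30%, and in IUGR-RC 9 and 7, beside 14.9% and 15.5%. The sexes did not overlap in 7, 4, 3 and 1 members in the order CON, HFhf, IUGR-HFhf and IUGR-RC, beside 8.0%, 5.30%, 3.33% and 4.83% of all genes tested. Of the 32 members 23 had the same sign in all 4 diets, which share no library, 8 were called in no diet and none was called in both directions. No share over all genes tested was taken for these 3 counts, so they only describe the members. Whether these sex differences themselves differ between diets was tested only as the interactions given above. Without the 5 libraries in doubt, 6 members rather than 9 were higher in IUGR-RC males and 6 rather than 7 in IUGR-HFhf males. The 3 members lower in CON males became 5 without male ZT16 CON replicate 3.

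Sample numbers below 49 are all males and those from 49 up all females outside IUGR-RC, so sex and the order of those numbers cannot be told apart. In IUGR-RC all males carry series M and all females series F, so sex and series cannot be told apart there either. Male libraries had a median depth of 7683865 reads and female libraries 10857789 reads. The exocrine pancreas gene Cpa1 was lower in males in all 4 diets, and the summed exocrine list was 1.42 to 3.57 CPM in CON males and 60.8 to 209 CPM in CON females. Without Cpa1 that sum was at most 6.72 CPM in the 51 libraries not in doubt, with Prss1 at 0 in 48 libraries of 56, so the defining pancreas genes were at or near 0 there. Of markers of other cells, the cholangiocyte gene Epcam was higher and the erythroid gene Slc4a1 lower in males in all 4 diets. In CON, HFhf, IUGR-HFhf and IUGR-RC males in turn, the stellate list had 2 higher and 0 lower of 10, 3 higher and 0 lower of 10, 0 higher and 1 lower of 10 and 1 higher and 3 lower of 10. The endothelial list had 1 higher and 1 lower of 9, 1 higher and 0 lower of 9, 0 higher and 1 lower of 9 and 0 higher and 4 lower of 9. The macrophage list had 0 higher and 0 lower of 13, 0 higher and 2 lower of 13, 1 higher and 0 lower of 13 and 1 higher and 0 lower of 13, and the adipocyte list 0 higher and 0 lower of 6, 0 higher and 1 lower of 6, 0 higher and 0 lower of 6 and 0 higher and 3 lower of 6. In IUGR-RC males the muscle list had 0 higher and 2 lower of 11 and the lymphocyte and neutrophil list 2 higher and 0 lower of 4. The part of these cells in the members' sex differences was not tested.

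Of the coagulation genes outside the list, Vkorc1 was lower in males in all 4 diets, with -0.61, -0.62, -0.55 and -0.83. Habp2, the factor VII activating protease, was also lower in all 4, with -0.87, -1.11, -0.66 and -0.89, and Hgfac, a relative of factor XII, was lower in all 4 too, with -0.32, -0.39, -0.25 and -0.35. In CON 2 were higher and 4 lower of 27 tested, in HFhf 4 were higher and 5 lower of 27, in IUGR-HFhf 1 were higher and 4 lower of 27 and in IUGR-RC 4 were higher and 4 lower of 27. Of the complement genes outside the list, the membrane regulators Cd46 and Cr1l were higher in males in all 4 diets, Cd46 by 3.13, 2.36, 2.31 and 3.84 and Cr1l by 1.41, 1.42, 1.25 and 1.57. Clu was higher and C4b, which encodes the fourth component, lower in males in all 4. Of that list 4 were higher and 2 lower of 27 in CON males, 3 were higher and 7 lower of 27 in HFhf, 4 were higher and 2 lower of 27 in IUGR-HFhf and 7 were higher and 5 lower of 27 in IUGR-RC.

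Between the times, 1 member was called lower at ZT16 in CON, 2 in HFhf and 8 in IUGR-HFhf. The 8 were C1r, C1s, C3 and Cfb of complement and Plg, Serpinf2, Proc and F2 of coagulation and fibrinolysis. No member was called higher in IUGR-HFhf, while 13.4% of all genes were and 12.3% were lower. The median log2 fold change there was -0.135 over the members and -0.00885 over all genes. In CON and HFhf it was -0.097 and -0.0878 over the members and 0.00967 and 0.0101 over all genes. Of 32 members, 26 lay below 0 in CON, 21 in HFhf, 26 in IUGR-HFhf and 16 in IUGR-RC.

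C1r ran at 529, 833 and 1274 CPM in 7 IUGR-HFhf libraries at ZT4 and 234, 494 and 604 CPM in 8 at ZT16, a log2 change of -0.82 (SE 0.139, adjusted p = 2.79e-05). In males the libraries at ZT4 had 950.2, 872 and 1274 CPM and those at ZT16 518, 564, 469 and 579 CPM, which did not overlap. In females they had 833, 689, 729 and 529 CPM and 427, 234, 457 and 604 CPM, which did. C1s fell by 0.86 on the log2 scale (SE 0.188, adjusted p = 0.000747), from 289, 486 and 612 CPM to 135, 254 and 431 CPM. C3 ran at 13478, 16521 and 20926 CPM at ZT4 and 10097, 12149 and 13588 CPM at ZT16, a log2 change of -0.51 (SE 0.0881, adjusted p = 3.31e-05). Only the top of the ZT16 range met the bottom of the ZT4 range. Plg fell from 2973, 3943 and 4507 CPM to 2537, 3049.8 and 3496 CPM, by 0.33 on the log2 scale (SE 0.0756, adjusted p = 0.00107). Serpinf2 had -0.31 (SE 0.0890, adjusted p = 0.00731), Cfb -0.25 (SE 0.0797, adjusted p = 0.015), Proc -0.24 (SE 0.0843, adjusted p = 0.0338) and F2 -0.21 (SE 0.0778, adjusted p = 0.0452).

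**Figure D5:**
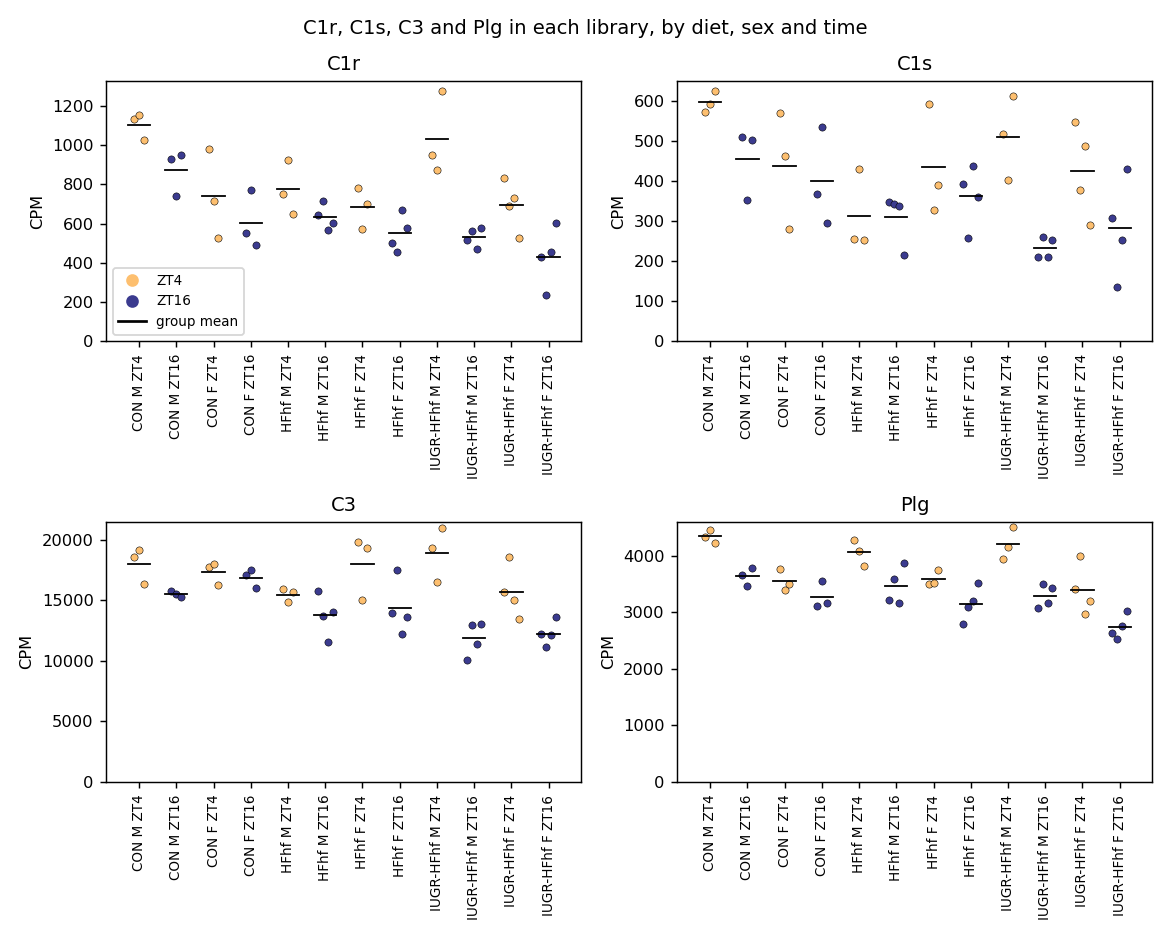
Level in CPM (y axis, from 0) of C1r, C1s, C3 and Plg in each CON, HFhf and IUGR-HFhf library, by diet, sex (M, F) and time (x axis). Points are libraries and lines group means; in IUGR-HFhf the ZT16 means lie below the ZT4 means of the same sex for all 4 genes.

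C1r, C1s, C3 and Plg in the other diets are given as values. C1r had -0.32 (adjusted p = 0.189) in CON, -0.30 (adjusted p = 0.183) in HFhf and 0.00 (adjusted p = 0.994) in IUGR-RC. C1s had -0.26 (adjusted p = 0.475), -0.14 (adjusted p = 0.717) and -0.19 (adjusted p = 0.521) in that order, C3 -0.13 (adjusted p = 0.459), -0.25 (adjusted p = 0.0687) and 0.03 (adjusted p = 0.863), and Plg -0.19 (adjusted p = 0.151), -0.21 (adjusted p = 0.0781) and 0.09 (adjusted p = 0.411). None of these passed, and the test of the difference in time effect between IUGR-HFhf and CON called no member, with -0.50 (adjusted p = 0.265) for C1r, -0.60 (adjusted p = 0.348) for C1s and -0.39 (adjusted p = 0.153) for C3. A fall particular to IUGR-HFhf is therefore not shown. Of the remaining genes that fell, Serpinf2 was also called lower in HFhf (-0.27), and Proc was called higher in IUGR-RC (0.24). Cfb and F2 were called in no other diet.

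In CON, Masp2 fell from 204, 220.2 and 246 CPM to 172, 186 and 217 CPM, by 0.24 on the log2 scale (SE 0.0785, adjusted p = 0.0358), the only member called where 6.25% of genes were higher and 6.91% lower. It lost its call without male ZT4 CON replicates 1 and 3, male ZT16 CON replicates 1 and 2, female ZT4 CON replicates 1 and 3 and female ZT16 CON replicates 1 and 3 (adjusted p from 0.0562 to 0.108), and 2 members were lower without male ZT16 CON replicate 3. In HFhf, with 5.44% and 4.77% of genes called, Serpinf2 fell from 648, 846 and 901 CPM to 553, 695 and 789 CPM, by 0.27 on the log2 scale (SE 0.0922, adjusted p = 0.0465). C8b fell from 460.0, 505 and 566 CPM to 403, 439 and 464 CPM, by 0.20 on the log2 scale (SE 0.0664, adjusted p = 0.0471). Serpinf2 lost its call without male ZT4 HFhf replicates 1 and 2, male ZT16 HFhf replicates 1, 2 and 3, female ZT4 HFhf replicates 1 and 3 and female ZT16 HFhf replicates 1, 2 and 3 (adjusted p from 0.0514 to 0.141), and C8b without male ZT4 HFhf replicates 2 and 3, male ZT16 HFhf replicates 1, 3 and 4, female ZT4 HFhf replicates 1 and 3 and female ZT16 HFhf replicates 1, 2 and 3 (adjusted p from 0.0568 to 0.116). The count of 2 was 0 or 1 without male ZT4 HFhf replicates 1, 2 and 3, male ZT16 HFhf replicates 1, 2 and 3, female ZT4 HFhf replicates 1 and 3 and female ZT16 HFhf replicates 1, 2 and 3. 1 member was called higher without male ZT4 HFhf replicate 2.

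In IUGR-RC F7 and Proc were higher and Mbl2 and F13b lower at ZT16, beside 9.40% and 10.6% of all genes. F7 had 34.2, 34.5, 27.2 and 28.7 CPM at ZT4 and 33.7, 51.1, 46.8 and 47 CPM at ZT16 in males, and 121, 88.8 and 99.3 CPM at ZT4 and 139, 198, 155 and 134 CPM at ZT16 in females. In females every ZT16 library was above every ZT4 library, and in males 1 ZT16 library lay within the ZT4 range. Averaged over the sexes the log2 change was 0.56 (SE 0.140, adjusted p = 0.00354), with adjusted p = 0.104 without the 5 libraries in doubt. For the other 3 the ranges pool males and females. Proc had 0.24 (SE 0.0847, adjusted p = 0.0382), from 267, 324 and 348 CPM to 259, 355 and 468 CPM. Mbl2 fell by 0.68 on the log2 scale (SE 0.214, adjusted p = 0.0198), from 1.51, 1.72 and 2.17 CPM to a median of 1.12 and at most 1.40 CPM, with no overlap but few reads. F13b, the carrier chain of factor XIII, fell by 0.38 on the log2 scale (SE 0.125, adjusted p = 0.024), from 377, 627 and 760.1 CPM to 341, 439.5 and 679 CPM. Proc lost its call without male ZT4 IUGR-RC replicates 1, 2 and 3, male ZT16 IUGR-RC replicates 2, 3 and 4, female ZT4 IUGR-RC replicates 2 and 3 and female ZT16 IUGR-RC replicates 2 and 4 (adjusted p from 0.0512 to 0.115), Mbl2 without male ZT16 IUGR-RC replicate 2 (adjusted p = 0.0515) and F13b without male ZT4 IUGR-RC replicates 3 and 4, male ZT16 IUGR-RC replicates 2 and 4, female ZT4 IUGR-RC replicates 1 and 3 and female ZT16 IUGR-RC replicate 2 (adjusted p from 0.0519 to 0.15). Over all 22 alternatives Proc was called in 9, with adjusted p = 0.396 and a log2 change of 0.151 without the 5 libraries in doubt. Mbl2 had adjusted p = 0.069 without those libraries, and F13b 0.196 when the compared groups were fitted alone. At ZT16 in IUGR-RC the stellate list had 0 higher and 6 lower of 10, the muscle list 0 higher and 3 lower of 11 and the macrophage and endothelial lists no call, and the part of those cells was not tested. The higher count was 5 without male ZT16 IUGR-RC replicate 1 and 1 without male ZT4 IUGR-RC replicates 1, 2 and 3, male ZT16 IUGR-RC replicates 2 and 4, female ZT4 IUGR-RC replicate 2 and female ZT16 IUGR-RC replicates 2 and 4. The lower count was 8 without male ZT16 IUGR-RC replicate 1, 5 without female ZT4 IUGR-RC replicate 2, 4 without male ZT4 IUGR-RC replicate 2, 1 without male ZT4 IUGR-RC replicates 3 and 4, male ZT16 IUGR-RC replicate 4, female ZT4 IUGR-RC replicates 1 and 3 and female ZT16 IUGR-RC replicate 2 and 0 without male ZT16 IUGR-RC replicate 2.

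Of the complement genes outside the list, 0 were higher and 7 lower of 27 at ZT16 in IUGR-HFhf, among them Serping1, the inhibitor of C1r and C1s (-0.49, adjusted p = 0.000342), Clu (-0.52, adjusted p = 0.00094), C1rl, a C1r relative (-0.57, adjusted p = 0.000976) and the receptor C5ar2 (-0.67, adjusted p = 0.00517). Of the other coagulation genes 4 were higher and 7 lower of 27, among them F8, which liver endothelium makes (-0.48, adjusted p = 0.000388), Proz (-0.25, adjusted p = 0.00631) and Mcfd2, which carries factors V and VIII out of the endoplasmic reticulum (0.49, adjusted p = 0.000108). Markers of other cells also fell at ZT16 in IUGR-HFhf: 4 of 9 endothelial, 2 of 13 macrophage and 3 of 10 stellate genes, with 1 stellate gene higher. The summed endothelial list was 502 to 626 CPM at ZT4 and 438 to 539 CPM at ZT16, and the macrophage list 446 to 870.2 and 401 to 632 CPM. Their part in the members' fall was not tested. Without the 5 libraries in doubt the count stayed at 8.

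IUGR-RC differed from CON in 26 of the 32 members, 22 higher and 4 lower. In that comparison 33% of all genes were higher and 29.9% lower. Both groups had chow, and growth restriction cannot be told apart from the separate sample series. The median over the members was 0.208 and over all genes 0.0268. All 5 terminal complement genes tested and all 3 regulators were higher.

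The lectin Mbl1 had 127, 145 and 172 CPM in CON and 189, 239 and 278 CPM in the 15 IUGR-RC libraries, with no overlap, 0.70 (SE 0.0585, adjusted p = 1.98e-14). C4bpb had 254, 331 and 369.7 CPM in CON and 384, 761 and 1742 CPM in IUGR-RC, also with no overlap, 1.23 (SE 0.118, adjusted p = 1.53e-12). F13b rose from 239, 336 and 389 CPM to 341, 464 and 760.1 CPM, by 0.68 (SE 0.0949, adjusted p = 2.53e-08), and F9 from 758, 922 and 1142 CPM to 874, 1425 and 2478 CPM, by 0.65 (SE 0.10, adjusted p = 2.71e-07). Mbl2 had 0.264, 0.667 and 0.905 CPM in CON and a median of 1.40 CPM in IUGR-RC, where it reached 2.17 CPM, 1.14 (SE 0.180, adjusted p = 3.81e-07). The 4 members that fell were F5, C3, Masp2 and Masp1. F5 ran at 359, 442 and 547 CPM in CON and 226, 277 and 381 CPM in IUGR-RC, -0.63 (SE 0.0671, adjusted p = 3.05e-11), the only gene of the common and extrinsic route that was lower. C3 ran at 15249.6 to 19104 CPM in CON and 10825 to 15194 CPM in IUGR-RC, which did not overlap, -0.35 (SE 0.0657, adjusted p = 1e-05). Masp2 had -0.17 (SE 0.0527, adjusted p = 0.0038) and Masp1 -0.31 (SE 0.0961, adjusted p = 0.00403).

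The other 17 that rose were F2 (0.17), F7 (0.29), F10 (0.18), F11 (0.21), Klkb1 (0.30), Pros1 (0.20), Serpinc1 (0.13), Serpind1 (0.34), C1s (0.49), C2 (0.21), C6 (0.62), C8a (0.34), C8b (0.19), C8g (0.22), C9 (0.34), Cfi (0.45) and C4bpa (0.34). F9 and F11, lower in IUGR-HFhf, were higher here. C8g was higher than in CON in HFhf and both IUGR groups, while C3 was lower in both IUGR groups. These groups share the CON libraries. Of 13 macrophage genes 9 were higher and 1 lower, and the summed list was 580.4 to 875 CPM in CON and 736 to 1508 CPM in IUGR-RC, while the endothelial sum was 467 to 568 and 356 to 519.5 CPM. Hepatocyte secreted proteins outside the list had 8 higher and 1 lower of 13, while the hepatocyte regulators had 0 higher and 8 lower of 16. The endothelial genes had 2 higher and 5 lower of 9, stellate 5 higher and 2 lower of 10, cholangiocyte 0 higher and 2 lower of 5, adipocyte 3 higher and 0 lower of 6, lymphocyte and neutrophil 2 higher and 0 lower of 4 and erythroid genes 1 higher and 1 lower of 3. The part of each was not tested. Of the other coagulation genes 14 were higher and 4 lower of 27, and of the other complement genes 14 were higher and 2 lower of 27.

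Across all 16 groups the members differed in how much they varied. F7 had the widest range of group means, from 30.3 CPM in HFhf males at ZT4 to 157 CPM in IUGR-RC females at ZT16, a 5.17-fold range, and 4.15-fold without IUGR-RC. C4bpb spanned 3.69-fold with IUGR-RC and 1.32-fold without it. C1r and C1s spanned 2.56-fold and 2.55-fold without IUGR-RC, with their highest means in CON males at ZT4 and their lowest in IUGR-HFhf at ZT16. Masp2 spanned the least of the tested members, 1.46-fold, 172 to 251 CPM. Serpinc1, the antithrombin gene, spanned 1.51-fold, 1956 to 2947 CPM. Every tested member was called in at least 1 of the 12 comparisons of means, as were 86.5% of all genes. When the 3 of IUGR-RC are set aside, 25 members were called in at least 1, as were 54.8% of all genes, and Klkb1, F13b, Mbl1, Mbl2, C6, Cfi and C4bpb in none. These ranges take in the spread of 3 or 4 libraries a group and are a description.

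The authors' deposited tables compare each diet with CON in each stratum and list 33 of the members. By the call score in the authors' deposited tables no member is called in the 8 tables of HFhf and IUGR-HFhf. By their adjusted p alone, under 0.05, the same tables hold 0 members at ZT4 and 2 at ZT16 for HFhf males, and 2 at ZT4 and 1 at ZT16 for HFhf females. For IUGR-HFhf the authors' deposited tables hold 1 and 5 in males and 0 and 4 in females at those times, and for IUGR-RC 17 and 10 in males and 12 and 7 in females. The share of all listed genes under 0.05 was not counted, so these counts only describe the members. In the fit here 2709 genes were higher and 2450 lower of 11047 in IUGR-RC males at ZT4. In the IUGR-RC tables the authors call C4bpb and Mbl2 higher in females at ZT4 and males at ZT4, and C4bpb in males at ZT16. The authors' deposited table gives C4bpb a log2 fold change of 1.45 (adjusted p = 2.27e-09) in males at ZT4 and 1.29 (adjusted p = 2.12e-07) in females at ZT4. Their log2 fold changes lay within 0.0986 of those here for every member, with the same sign for all 32 in 10 tables and for 31 in the others.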

How the data were processed

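Liver RNA of 56 rats was sequenced, per the labels' protocols, from libraries made with a stranded kit that removes ribosomal RNA, though the molecule label reads polyA and the source label mouse liver. Build rn6 and the tools STAR, featureCounts, Subread, FastQC and DESeq2 are recorded in the submitters' processing notes. Versions, strand setting and treatment of multimapping reads are not given in the sources used here. The authors deposited raw counts per gene symbol. They also deposited 12 comparison tables with log2 fold changes, an adjusted p-value and a call score of 1, 0 or -1, per the file headers.

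Counts were fitted with edgeR 4.0.16 in R 4.3.3: filterByExpr, TMM, 1 mean for each of 16 groups, robust quasi-likelihood F tests (two-sided, 40 residual degrees of freedom) and Benjamini-Hochberg adjustment over 11047 genes at 0.05, in 32 comparisons. Each standard error was derived from the fold change and its F statistic. DESeq2 1.42.0 and limma 3.58.1 were alternatives. The procedure was tested on simulated data. Promoters were read from RefSeq GRCr8, which held 27 of the 35 members. Members and lists were chosen with earlier results of these data known. All called members are named in each comparison, with levels for up to 4 in each direction by smallest p. From other lists up to 4 called genes are named, and 1 of these is not reported here.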

Additional observations from a re-analysis of the deposited data

Results flagged for a closer look

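In the groups of 4 libraries, 15 of 208 tests (26 genes in 8 groups) had 1 library standing apart by Dixon's criterion, where chance flags about 1 in 20. The 26 genes were those picked by smallest p in these same data, and genes of a group share its libraries. The count is therefore not read against that rate. In HFhf females at ZT16, replicate 4 was high in F2, at 2813 CPM against 2230.1 to 2254 CPM in the others, in Serpinf2, at 734 against 553 to 583 CPM, and in Proc, at 336 against 300.2 to 304 CPM. In the same group replicate 1 was high in Masp1, at 342 against 170.3 to 181 CPM. In HFhf males at ZT16, replicate 4 was low in C1s, at 216 against 336 to 348 CPM.

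In IUGR-HFhf females at ZT16, replicate 1 was low in F12, at 643 against 818 to 847 CPM, and replicate 4 high in Mbl1, at 163 against 134 to 138 CPM. In IUGR-HFhf females at ZT4, replicate 3, which held exocrine pancreas transcripts, was low in Pros1, at 207 against 253 to 259.7 CPM, and replicate 4 was high in C8g, at 478 against 326 to 331 CPM. In IUGR-HFhf males at ZT16, replicate 3 was high in C8g by a small margin, at 360.1 against 342 to 345 CPM.

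In IUGR-RC males at ZT16, replicate 1 was low in F12, at 442 against 646 to 676 CPM, and high in C4bpb, at 1742 against 578 to 761 CPM. In IUGR-RC males at ZT4, replicate 2 was high in Masp1, at 274 against 212 to 223 CPM, and low in Cfb, at 1856 against 2033 to 2043 CPM. In IUGR-RC females at ZT16, replicate 4 was high in Masp2, at 206 against 173 to 175 CPM. The part of these libraries in the report's comparisons is given where leaving one of them out changed a count.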

How the results depend on the processing

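Counts of called members were recomputed with DESeq2, with RLE size factors, without the filter on low counts, with limma-voom and sample weights, without the IUGR-RC libraries, on the compared groups alone and with each library left out. Added after seeing the data were fits without the 5 libraries in doubt and with the sample number range as a term. No direction reversed. For HFhf against CON, the 4 higher members became 2 with no filter and 7 with limma-voom, and the 2 lower became 4 with DESeq2. For males against females, the 3 lower in CON became 8 with limma-voom and 5 on the compared groups alone, the 7 higher in IUGR-HFhf became 12 with limma-voom, and the 9 higher in IUGR-RC became 4 on the compared groups alone. For ZT16 against ZT4 in CON, limma-voom gave 1 higher and 5 lower, DESeq2 2 lower and no filter 0. For ZT16 against ZT4 in HFhf, 1 member was higher with limma-voom, without IUGR-RC and without the 5 libraries. The 2 lower became 4 with DESeq2, 0 with no filter or on the compared groups alone and 1 with the number range. For ZT16 against ZT4 in IUGR-RC, the 2 higher became 4 with DESeq2 and 1 with no filter, on the compared groups alone or without the 5 libraries, and the 2 lower became 7 with limma-voom and 1 on the compared groups alone. The shares of all genes called in these fits, or with 1 library left out, are not given here. The changed counts are therefore not shown to be particular to the members. The cause was not tested.

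With 1 library left out, higher and lower members ran from 1 to 6 and from 2 to 4 for HFhf against CON, stayed at 4 and ran from 6 to 10 for IUGR-HFhf, and ran from 17 to 23 and from 4 to 6 for IUGR-RC. IUGR-HFhf against HFhf stayed at 0 in both directions. For males against females they ran from 6 to 7 and 3 to 5 in CON, 2 to 4 and 6 to 9 in HFhf, 5 to 10 and 2 to 3 in IUGR-HFhf, and 7 to 11 and 6 to 7 in IUGR-RC. For ZT16 against ZT4 they were 0 and 0 to 2 in CON, 0 to 1 and 0 to 3 in HFhf, 0 and 6 to 10 in IUGR-HFhf, and 1 to 5 and 0 to 8 in IUGR-RC. No paired analysis was possible because the labels give no numbers or litters that groups share. Depth limits Mbl2, Kng1 and Serpina10.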

Other observations

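Genes that regulate hepatocytes, and acute phase proteins, were read from lists written for this purpose. Esr1, the estrogen receptor, was lower than in CON in HFhf (-0.76, adjusted p = 9.49e-05) and IUGR-HFhf (-0.58, adjusted p = 0.0015), and Nr3c1, the glucocorticoid receptor, in IUGR-HFhf (-0.29, adjusted p = 0.00245). Foxa1 was higher in males in all 4 diets, by 0.79, 0.46, 0.73 and 1.19 in CON, HFhf, IUGR-HFhf and IUGR-RC, and Hnf4a was lower in HFhf males (-0.32, adjusted p = 0.00592). Of 16 regulators 3 were higher and 1 lower in CON males, 4 and 3 in HFhf, 2 and 1 in IUGR-HFhf and 3 and 5 in IUGR-RC. Their log2 changes by sex ran from -1.86 to 1.19. Stat5b, which carries the growth hormone signal, fell from ZT4 to ZT16 in CON (-0.92, adjusted p = 4.21e-07), HFhf (-0.52, adjusted p = 0.00198), IUGR-HFhf (-0.69, adjusted p = 1.44e-05) and IUGR-RC (-0.46, adjusted p = 0.0032). At ZT16 2 of the 16 regulators were higher and 4 lower in CON, 1 and 6 in HFhf, 0 and 6 in IUGR-HFhf and 2 and 3 in IUGR-RC. Their log2 changes by time ran from -2.42 to 1.86. The shares of all genes are those given above for each comparison.

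Of the acute phase genes, Orm1, which encodes orosomucoid, was lower in HFhf (-0.85, adjusted p = 0.0362) and IUGR-HFhf (-1.01, adjusted p = 0.00744), where Crp (-0.51, adjusted p = 0.00394) and the hepcidin gene Hamp (-0.69, adjusted p = 0.0178) were lower and Il6r (0.43, adjusted p = 0.0131) higher. Between ZT4 and ZT16 in IUGR-HFhf 0 were higher and 6 lower of 19, among them Socs3 (-1.35, adjusted p = 0.00214) and Serpina3n (-0.74, adjusted p = 0.00603). In IUGR-RC against CON 11 were higher and 0 lower of 19, with Apcs (1.28, adjusted p = 4.74e-15), Hp (0.87, adjusted p = 1.3e-08) and the fibrinogen chain Fgg (0.94, adjusted p = 1.7e-06) among them. In males 4 were higher and 3 lower of 19 in CON, 4 were higher and 6 lower of 19 in HFhf, 5 were higher and 2 lower of 19 in IUGR-HFhf and 9 were higher and 2 lower of 19 in IUGR-RC, where 7.85% and 8.36%, 10.0% and 10.2%, 7.84% and 7.30%, and 14.9% and 15.5% of all genes were higher and lower. Itih4 was lower and Saa4 and Serpina3n higher in males in all 4 diets.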
